A study of Mus musculus with 288 samples.

Results

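The genes described here are 10 targets and feedback regulators of the ERK pathway, namely Dusp4, Dusp6, Spry2, Spry4, Spred1, Etv4, Etv5, Egr1, Fos and Ier3. They were taken by name from a single-cell RNA-seq count table of 54232 genes, and their level, the share of cells with a read at equal depth and their co-variation between cells are given. The cells were mouse embryonic stem cells, given under every label as the line E14 (strain 129/Ola), although those labelled D1 differed in genes that can mark a subline, as described below. Their RNA was separated from the DNA of the same cell by scNMT-seq, a protocol that also marks open chromatin with a GpC methyltransferase before lysis. Cells labelled D0 (0 h) were grown in 2i+LIF, that is, N2B27 medium with 3 µM of the GSK3 inhibitor CHIR99021, 1 µM of the MEK inhibitor PD0325901 and 20 ng/ml LIF. Cells labelled D1 (24 h) and D2 (48 h) had been rinsed and moved to a medium with 15% fetal bovine serum and 20 ng/ml LIF. LIF was therefore present under every label, both inhibitors were removed together, and serum was added in the same step. Each label was 1 culture on a plate of 96 wells as far as the labels show, so time, medium, culture and plate cannot be told apart. No test between labels was run, and the SD printed is that between cells.

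In embryonic stem cells FGF4 acts through its receptor, RAS and RAF on the kinase MEK, which phosphorylates ERK, and the MEK inhibitor of 2i blocks this last step. Active ERK induces genes in waves. Immediate early genes such as Egr1, Fos and Ier3 are switched on without new protein synthesis, ETS-family factors such as Etv4 and Etv5 carry the signal on, and feedback inhibitors limit it. Among these, the DUSP phosphatases remove phosphate from ERK, and the Sprouty and Spred proteins act upstream on RAS and RAF.

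Of 288 wells, 233 passed the limits on reads (over 200000), genes (over 2000) and mitochondrial share (under 0.15), with 90 cells labelled D0, 50 labelled D1 and 93 labelled D2. Their totals were between 202157 and 43336922 reads. With each cell thinned to 200000 reads, the median number of genes with a read was 7802, 8034.5 and 3975 under D0, D1 and D2, so fewer genes were read per cell in D2, although single genes could be read in more of its cells. The embryonic stem cell markers were present, with all 8 of the list read in 50% or more of the cells of every label. Summed markers of primitive endoderm (6 genes), mesoderm (4) and fibroblasts (5) had a median of 0 CPM under every label, with highest cells between 6.81 and 181 CPM. The 6 trophectoderm markers summed to medians of 63.8 (D0), 8.38 (D1) and 0 CPM (D2), with means of 110.2, 55.6 and 127 CPM and highest cells at 976, 1557 and 9105 CPM. The 3 ectoderm markers summed to medians of 0, 13.1 and 0 CPM, with highest cells at 199, 94.8 and 91.95 CPM. The part of other cell types in the results was not tested.

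Cells labelled D1 stood apart from the others in genes outside the pathway. Hprt, a purine salvage enzyme, had a read in 9 of 90 D0 cells, 48 of 50 D1 cells and 7 of 93 D2 cells. Of the Y-linked genes Uty, Kdm5d, Eif2s3y and Ddx3y at least 1 had a read in 3 of 90, 48 of 50 and 5 of 93 cells. The 2 D1 cells without Hprt were those of wells B5 and B6. The cell of B5 had Y-linked reads, while that of B6 had none, and its profile over 3941 genes correlated best with the median profile of D2. The same was so of 2 D0 cells, in wells B2 and H8, where of the 10 genes only Etv5 in B2 was read, at 124 CPM. Without these 3 cells the numbers of ERK genes past 2-fold were as given below. Neither B5 nor B6 had a read of Dusp4, Egr1, Fos or Ier3. In them Dusp6 was at 47.6 and 150 CPM, Spry4 at 277 and 50.02 CPM and Etv5 at 471 and 243 CPM, within the range of the other D1 cells. Whether the cells labelled D1 are of the same subline as those of D0 and D2 was not tested, and subline, time and plate cannot be told apart in any ratio with D1 below.

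Plate column 12 of D0 and D2 also stood apart, a pattern chosen after the values were seen. In D0, Hprt had a read in 6 of 8 cells of column 12 and in 3 of 82 elsewhere, and in D2 in 6 of 8 and 1 of 85. Among the ERK genes, Fos and Egr1 followed the same wells. Fos had a read in 5 of 8 cells of column 12 against 3 of 82 in D0, and in 7 of 8 against 0 of 85 in D2, which allows a share of up to 3.53% of cells outside that column. Egr1 had a read in 5 of 8 against 3 of 82 in D0, and in 7 of 8 against 17 of 85 in D2. Cells of column 12 in D2 had a median of 7390.5 genes, against 4729 in the other columns. Values of Dusp4, Spry4, Egr1 and Fos are given below with and without this column, and the origin of its reads was not tested.

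**Figure D1:**
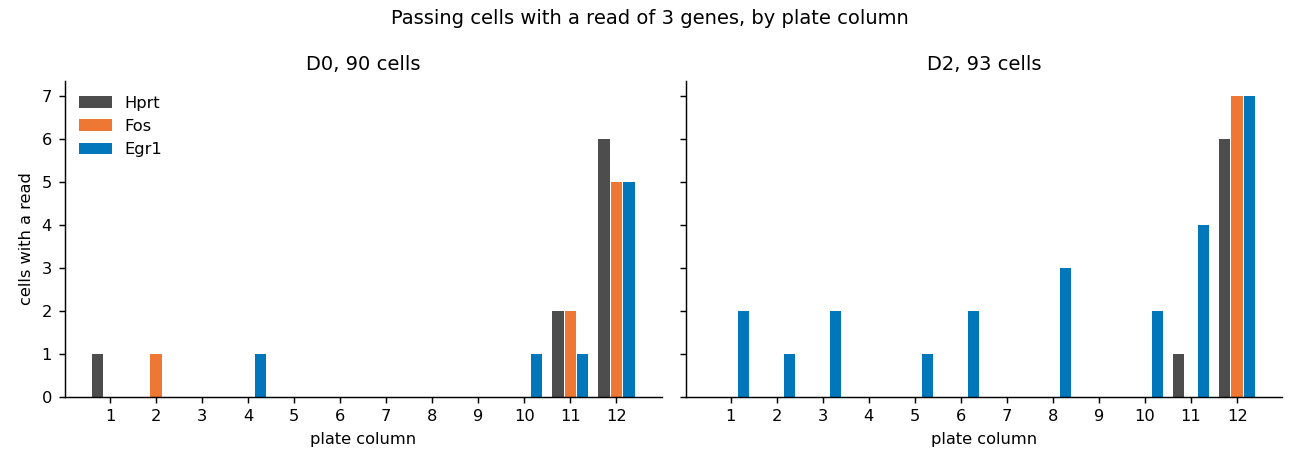
Number of passing cells with at least 1 read (y axis) of Hprt, Fos and Egr1 in each plate column (x axis) of D0 and D2. Reads of Hprt and Fos gather in column 12 on both plates, where Fos had a read in 5 of 8 cells of D0 and 7 of 8 of D2, while Egr1 in D2 was also read in 17 cells of other columns.

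Dusp4, a nuclear phosphatase of ERK (chr8:34807297-34819894, plus strand, GRCm38), was read mainly in the cells at 24 h. In D0 the lowest and the median cell were at 0 and the highest at 26.4 CPM, with 40 reads in 2 of 90 cells, both in column 12. In D1 the cells ranged from 0 through a median of 15.3 to 138.5 CPM, and 42 of 50 had a read. In D2 they ranged from 0 through a median of 0 to 49.7 CPM, and 3 of 93 had a read. The means were 0.30 ± 2.78, 23.3 ± 27.1 and 1.43 ± 7.90 CPM in the same order. Only D1 had a median above 0, although 8 of its cells were at 0 like most cells of the other labels. The log2 ratio of mean CPM + 1 was 4.22 for D1 over D0 and -3.33 for D2 over D1. That of D2 over D0 was 0.90, and 1.26 without the D0 cell of well C12. Without column 12 the 3 ratios were 4.63, -3.65 and 0.98, and D0 then held no read of Dusp4 in 82 cells, which allows a share of up to 3.66%. The ratios over D0 without that column were therefore set by the 1 CPM added to the D0 mean. With all cells, the D1 over D0 ratio was 1.69 with 10 CPM added and 6.26 with none.

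Dusp6, a cytoplasmic phosphatase specific for ERK (chr10:99263231-99267489, plus strand), was higher at both times after release than in 2i. Cells labelled D0 ranged from 0 through a median of 0 to 121 CPM, those labelled D1 from 0 through 73.6 to 346 CPM, and those labelled D2 from 0 through 0 to 1055 CPM. The means were 6.74 ± 20.9, 95.6 ± 84.8 and 64.7 ± 159 CPM. Most D1 cells lay above the median of D0, whereas D2 was split between a majority at 0 and 18 of 93 cells over 100 CPM, more than the 1 of 90 in D0. The log2 ratio over D0 was 3.64 in D1 and 3.09 in D2. Among the 32 cells of D2 with a read the mean was 188 CPM, and among the 46 of D1 it was 104 CPM.

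Spry4 encodes a Sprouty protein, an inhibitor of RAS and RAF activation. Its cells ranged from 0 through a median of 0 to 79.6 CPM in D0, from 0 through 25.7 to 390 CPM in D1, and from 0 through 0 to 909 CPM in D2. The means were 4.34 ± 13.5, 47.5 ± 74.02 and 66.6 ± 161 CPM. As for Dusp6, every label held cells at 0, D1 alone had a median above 0, and the highest cells were those of D2. The log2 ratio over D0 was 3.18 in D1 and 3.66 in D2. Column 12 of D2 had a mean of 189 CPM in 8 cells, against 55.1 CPM in the other 85, and without that column the ratios were 3.25 in D1 and 3.43 in D2.

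Spry2 (chr14:105891947-105896819, minus strand), also a Sprouty gene, had another pattern. It was already present under the MEK inhibitor, from 0 through a median of 59.5 to 240 CPM in D0. In D1 it ranged from 1.47 through 94.95 to 600 CPM, and in D2 from 0 through 0 to 218 CPM. The means were 68.4 ± 54.6, 113 ± 105.1 and 8.14 ± 31.4 CPM. Cells of D0 and D1 overlapped up to the highest D0 cell and the cells above it were of D1, while a read was present in only 27 of 93 cells labelled D2. The log2 ratio was 0.72 for D1 over D0, -2.92 for D2 over D0 and -3.65 for D2 over D1. With reads summed over cells in place of the mean over cells, the first of these was 1.03, just past 2-fold.

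Spred1 (chr2:117121374-117182279, plus strand), a Sprouty-related inhibitor of RAF activation, followed Spry2. Its cells ranged from 0 through a median of 4.17 to 117 CPM in D0, from 0 through 23.1 to 99.8 CPM in D1, and from 0 through 0 to 135 CPM in D2. The means were 20.8 ± 29.3, 30.3 ± 28.9 and 2.29 ± 15.4 CPM. Only 6 of 93 cells of D2 had a read, against 51 of 90 in D0 and 47 of 50 in D1. The log2 ratio was 0.53 for D1 over D0 and -2.73 for D2 over D0. The first had no stable direction, at -0.39 with no filter on cells and 2.22 by the median over cells. In D2, 63.3% of the summed CPM came from the cell of well E1, and without it the mean was 0.85 CPM, the D2 over D0 ratio -3.56 and the D2 over D1 ratio -4.08 in place of -3.25.

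Etv4 (chr11:101769742-101785371, minus strand) and Etv5 (chr16:22381309-22439719, minus strand) encode related ETS transcription factors that are used as readouts of FGF signalling. Neither had a 2-fold difference in mean level between any pair of labels, and both were read in most cells held in MEK inhibitor. Etv4 ranged from 0 through a median of 14.6 to 130 CPM in D0, from 0 through 19.5 to 163 CPM in D1, and from 0 through 1.66 to 262 CPM in D2. Its means were 28.03 ± 35.4, 36.03 ± 40.4 and 33.9 ± 61.2 CPM, closer to each other than the spread between cells of any label. Etv5 ranged from 0 through 321 to 789 CPM in D0, from 10.1 through 190 to 1805 CPM in D1, and from 0 through 141 to 1981 CPM in D2. Its means were 332 ± 177, 221 ± 261 and 381 ± 491 CPM, with log2 ratios of -0.58 for D1 over D0, 0.20 for D2 over D0 and 0.78 for D2 over D1. The SD of Etv5 was well under its mean in D0 and over it in D1 and D2. The medians went the other way from the means in D2, with a log2 ratio of medians over D0 of -1.18 for Etv5 and -2.55 for Etv4. Without the cell of well B7, which was at 1805 CPM, the mean of Etv5 in D1 was 189 ± 127 CPM, with the SD under the mean, and the D2 over D1 ratio was 1.01.

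Egr1, a zinc finger transcription factor of the immediate early class, was almost unread in 2i and read in a minority of cells after release. Cells labelled D0 ranged from 0 through a median of 0 to 33 CPM, those labelled D1 from 0 through 0 to 419 CPM, and those labelled D2 from 0 through 0 to 672 CPM. A read was present in 8 of 90, 17 of 50 and 24 of 93 cells, and the means were 0.75 ± 3.76, 22.4 ± 72.1 and 32.5 ± 108 CPM. The median was 0 under every label, so the difference in means came from a few high cells, with 0 cells over 100 CPM in D0, 3 in D1 and 9 in D2. The log2 ratio over D0 was 3.74 in D1 and 4.26 in D2. Without column 12 the means were 0.14 ± 0.86, 22.9 ± 72.8 and 33.6 ± 113 CPM, and the ratios 4.39 and 4.92. Without the highest D1 cell, that of well E6, the D1 ratio was 3.13 and that of D2 over D1 moved from 0.52 to 1.13. In plate columns 1 to 6 the ratio of D1 over D0 was 4.83 and that of D2 over D1 -0.85, and in columns 7 to 12 they were 2.71 and 1.70, so the order of D1 and D2 turned between the sides of the plate.

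Fos (chr12:85473890-85477273, plus strand), a subunit of the AP-1 transcription factor, was the member with the fewest reads. Its mean over the labels was under the limit of 5 CPM used for counts of genes. Cells ranged from 0 through a median of 0 to 16.5 (D0), 383 (D1) and 20.7 CPM (D2), with a read in 8 of 90, 9 of 50 and 7 of 93 cells. The means were 0.64 ± 2.72, 11.6 ± 55.3 and 0.48 ± 2.44 CPM. A single D1 cell, in well E5, gave 66.1% of the summed CPM, and without it the D1 mean was 4.01 ± 13.5 CPM and the log2 ratio over D0 was 1.61 in place of 2.94. The ratio of D2 over D1 was -3.09 with that cell and -1.76 without it. In plate columns 1 to 6 the ratio of D1 over D0 was 4.10, and in columns 7 to 12, which include column 12, it was 0.61. Without column 12 the means were 0.20 ± 1.65 CPM in D0 and 11.8 ± 55.8 CPM in D1, and the ratios were 3.42 for D1 over D0 and -3.68 for D2 over D1. The latter was set by the 1 CPM added to a D2 mean of 0. With all cells, the D2 over D1 ratio was -4.60 with nothing added. Outside column 12, the D2 plate had no read of Fos, so a level of Fos in D2 rests on that column alone.

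Ier3 (chr17:35821684-35822923, plus strand), a short immediate early gene linked to cell survival, was higher at both times after release. Cells ranged from 0 through a median of 0 to 68.1 CPM in D0, from 0 through 7.14 to 771 CPM in D1, and from 0 through 0 to 249 CPM in D2. The means were 2.98 ± 10.1, 26.6 ± 109 and 24.9 ± 56.1 CPM, with a read in 13 of 90, 32 of 50 and 25 of 93 cells. Reads were found in most cells of D1 only, while D2 had more cells over 100 CPM, 11 against 1. The log2 ratio over D0 was 2.79 in D1 and 2.70 in D2. The cell of D1 well B7 gave 58.04% of the summed CPM, and without it the D1 mean was 11.4 ± 16.5 CPM, the ratio over D0 was 1.64 and that of D2 over D1 moved from -0.09 to 1.06, past 2-fold. That cell, with 350065 reads on 2172 genes, was also the highest of D1 for Spry2 and Etv5 and had no read of the 7 other genes.

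**Figure D2:**
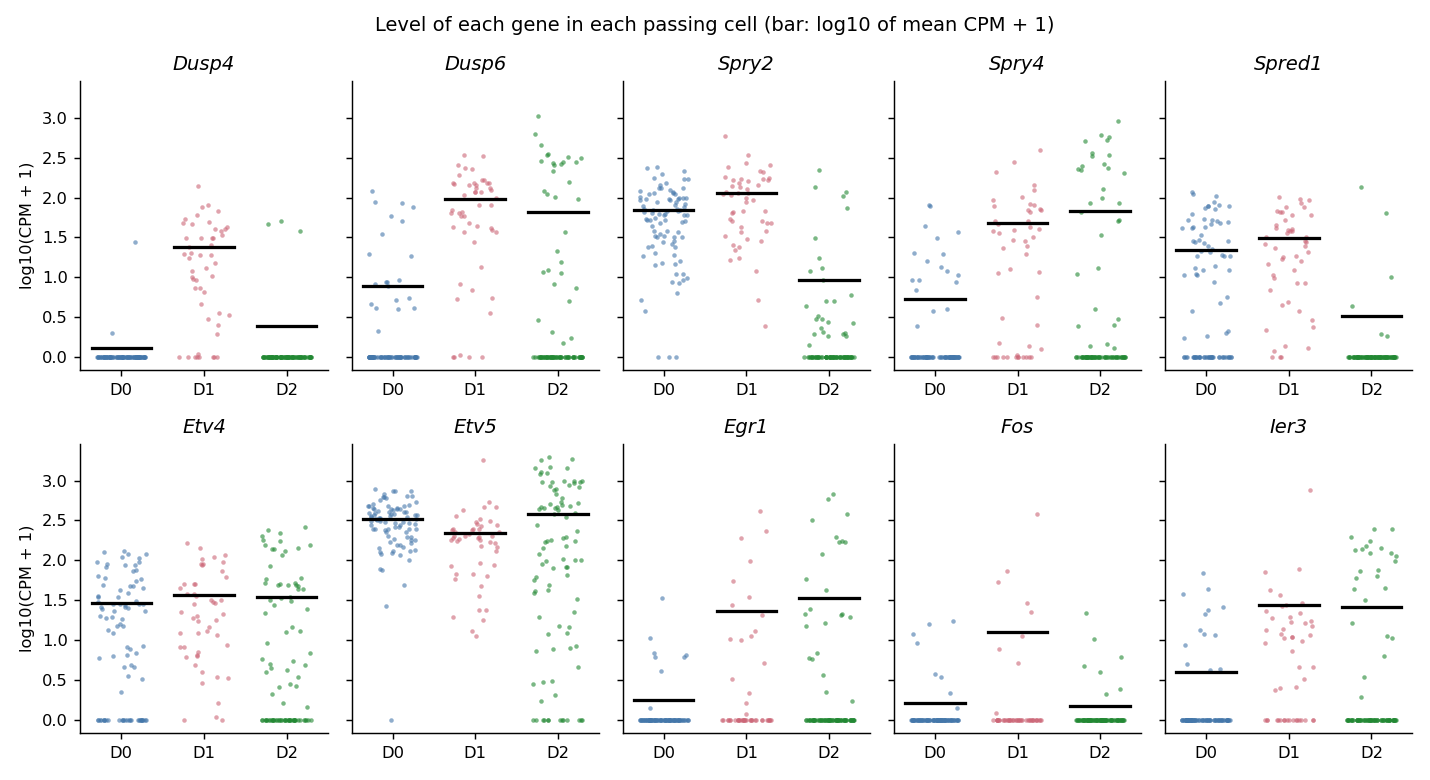
Level of each of the 10 genes in each passing cell, as log10(CPM + 1), for D0 (90 cells), D1 (50) and D2 (93), with a black bar at log10 of the mean CPM + 1. Dusp4 is seen mainly in D1, Spry2 and Spred1 lie mostly at 0 in D2, and Dusp6, Spry4, Egr1 and Ier3 in D2 are split between cells at 0 and a few high cells.

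The means were set against all 10256 genes whose mean over the 3 labels was at least 5 CPM, of which 9 were ERK genes. The ERK genes are few and were chosen with earlier results of these data known. The shares of all genes therefore stand beside their counts as a description, not as evidence about the set. For D1 over D0, 5 of the 9 (Dusp4, Dusp6, Spry4, Egr1 and Ier3) were at least 2-fold higher, where 12.7% of all genes were, and 0 were at least 2-fold lower, where 28.5% were. Dusp4 passed the limit only through D1, the label where it was high, so its place in the counts with D1, here and below, was fixed by the limit and is not read as a result. The median log2 ratio of the 9 was 2.79, and that of all genes was -0.35. For D2 over D0, 4 of the 9 (Dusp6, Spry4, Egr1 and Ier3) were at least 2-fold higher against 14.8% of all genes, and 2 (Spry2 and Spred1) were at least 2-fold lower against 27.4%. Their median was 0.90, beside -0.17 for all genes. That value is the ratio of Dusp4, which ran from 0.00 to 2.23 over the alternatives, so nothing is read from it. The medians of the other 2 comparisons are the ratios of Ier3, which rest on the D1 cell of well B7. For D2 over D1, 0 of the 9 were at least 2-fold higher against 20.5% of all genes, and 3 (Dusp4, Spry2 and Spred1) were lower against 18.3%, with a median of -0.09 beside 0.09. By the median over cells in place of the mean, the D2 over D1 ratios of Dusp6, Spry4, Ier3 and Etv4 were also past 2-fold lower, at -6.22, -4.74, -3.03 and -2.95, and that of Spry4 had then turned from 0.48. The 3 comparisons share their samples in pairs, so they are not separate evidence. At a limit of 4-fold the same number, 5, were higher for D1 and 4 for D2 over D0, where 3.74% and 4.04% of all genes were. The 5 again hold Dusp4. They also hold Ier3, whose D1 over D0 log2 ratio without the cell of well B7 was 1.64, under 4-fold. That ratio was also under 4-fold in plate columns 1 to 6, at 1.54.

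**Figure D3:**
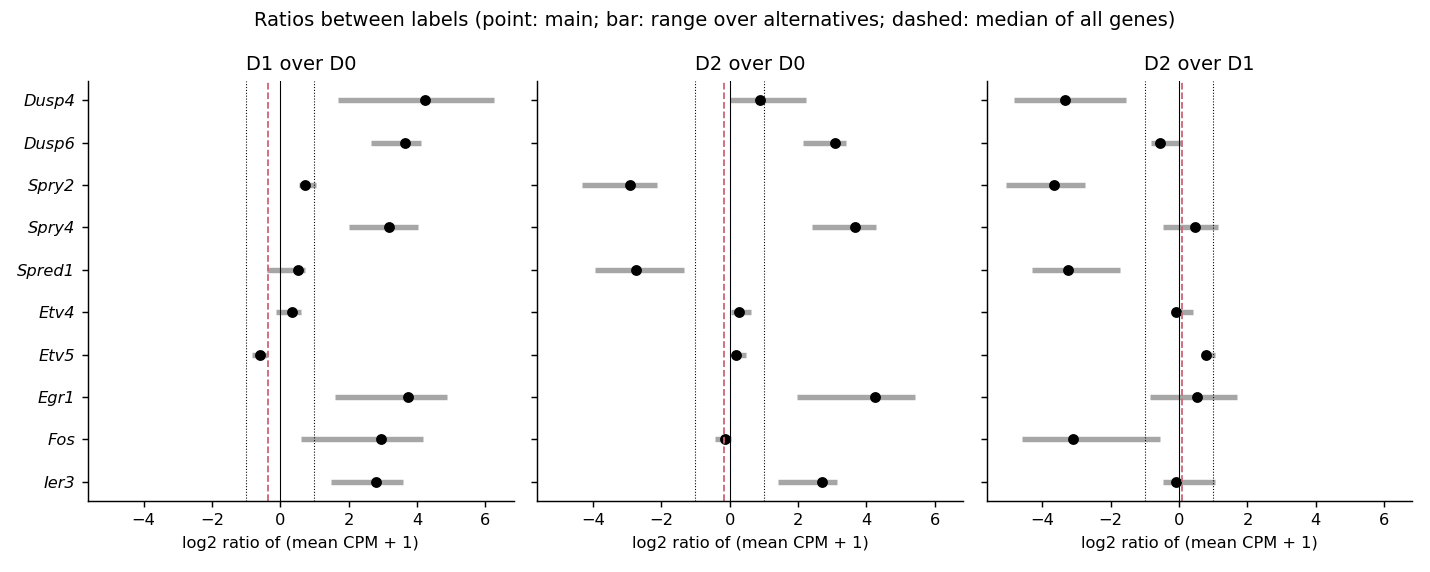
The log2 ratio of mean CPM + 1 (x axis) of each gene (y axis) for 3 pairs of labels, as a point, with a grey bar for the range over the alternatives other than the median over cells. Dotted lines mark 2-fold and the dashed line the median of all genes, at -0.35, -0.17 and 0.09.

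At equal depth the shares of cells with a read were highest in D1 for each of the 10 genes. For Spry2 this order turned without column 12, at 95.1% in D0 and 93.9% in D1, and also without the cells that matched another label. Their intervals cover counting error within the 1 culture of a label and say nothing of a difference between labels. Dusp4 had a read in 70% of D1 cells (exact 95% interval 55.4% to 82.1%), against 2.22% (0.27% to 7.80%) in D0 and 3.23% (0.67% to 9.14%) in D2. For Dusp6 the shares were 16.7% (9.64% to 26%) in D0, 88% (75.7% to 95.5%) in D1 and 29.03% (20.1% to 39.4%) in D2. The mean of Dusp6 was 8.49-fold higher in D2 than in D0 on the scale of CPM + 1. Spry4 had 16.7%, 62% and 27.96%, and Ier3 12.2%, 52% and 24.7%. For Spry2 the shares were 93.3% in D0, 94% in D1 and 13.98% in D2, and for Spred1 53.3%, 80% and 4.30%. Those of Etv5 were 98.9%, 100% and 82.8%, and those of Etv4 63.3%, 78% and 39.8%. Egr1 had a read in 7.78%, 24% and 22.6% of cells, and Fos in 5.56%, 16% and 4.30%. Without column 12 the shares of Egr1 were 2.44%, 24.5% and 17.7%, and those of Fos 1.22%, 16.3% and 0%. Shares were lower in D2 than in D1 for Spry4, Egr1 and Etv5 while their mean levels were higher, and in plate columns 1 to 6 the D2 over D1 ratio of Spry4 was -0.47 against 1.13 in columns 7 to 12, so no order of D1 and D2 is read from them. The median cell had a read of 4 of the 10 genes in D0, 7 in D1 and 2 in D2. Over all cells 37%, 66.4% and 25.3% of gene and cell pairs had a read, beside 67.5%, 67.4% and 35.6% for all 10256 genes.

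**Figure D4:**
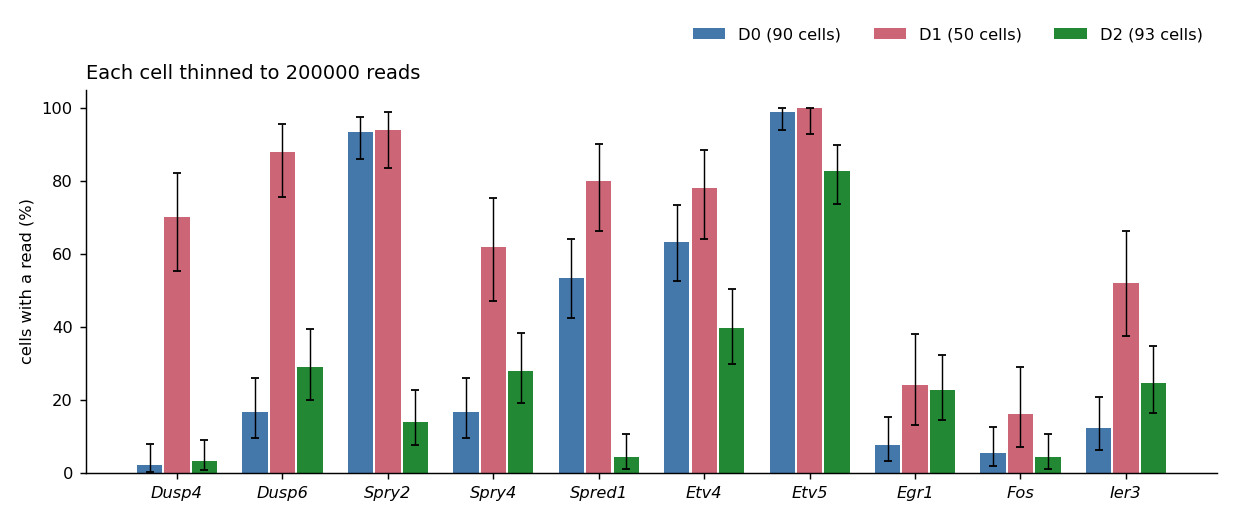
Share of passing cells with at least 1 read of each gene after each cell was thinned to 200000 reads (y axis, %), by label, with exact 95% binomial intervals. D1 is highest for every gene in this setting, from 16% for Fos to 100% for Etv5, with Spry2 nearly level at 93.3% in D0 and 94% in D1, an order that turned without plate column 12, and Spry2 and Spred1 stand at 13.98% and 4.30% in D2.

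Levels of different genes were compared only per kilobase of annotated exon. In D0 the order of mean CPM per kb was led by Etv5 (80.95) and Spry2 (32.8), then Etv4 (9.03), Spred1 (3.06), Ier3 (2.63) and Dusp6 (2.15), with Spry4, Fos, Egr1 and Dusp4 between 0.91 and 0.11. In D1 the leading genes were Spry2 (54.4), Etv5 (53.9), Dusp6 (30.5) and Ier3 (23.5), the last of which rested on 1 cell. In D2 they were Etv5 (92.9), Ier3 (21.97), Dusp6 (20.7) and Spry4 (14). Spry2 and Etv5 in D1, and Ier3 and Dusp6 in D2, differed by far less than the spread between cells.

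The stretches just before the start sites of 3 genes are shown because these genes stand for 3 of the patterns, higher after release (Dusp6), low at 48 h (Spry2) and read in few cells (Fos). The patterns of Dusp4, Etv4 and Etv5 are not among them. They are 250 bases each from RefSeq (GRCm38.p6), 5′ to 3′ on the strand of the gene, with capitals at GGAAG or its complement, a core that ETS factors can bind. Of the 10 genes, 6 were matched in the promoter table used, namely Dusp6, Etv5, Fos, Ier3, Spred1 and Spry2. Spry4 and Egr1 were left out before the match, and Dusp4 and Etv4 had no entry.
Dusp6, chr10:99262981-99263230, plus strand: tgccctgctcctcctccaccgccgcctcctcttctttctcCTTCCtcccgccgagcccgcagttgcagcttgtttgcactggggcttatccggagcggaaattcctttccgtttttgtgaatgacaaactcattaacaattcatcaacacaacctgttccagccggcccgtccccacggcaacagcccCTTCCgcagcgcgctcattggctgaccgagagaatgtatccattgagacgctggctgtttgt
Spry2, chr14:105896820-105897069, minus strand: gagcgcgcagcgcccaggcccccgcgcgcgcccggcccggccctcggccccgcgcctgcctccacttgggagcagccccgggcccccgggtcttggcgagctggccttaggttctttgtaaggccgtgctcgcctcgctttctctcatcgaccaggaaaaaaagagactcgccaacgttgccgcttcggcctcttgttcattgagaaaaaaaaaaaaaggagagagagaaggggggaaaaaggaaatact
Fos, chr12:85473640-85473889, plus strand: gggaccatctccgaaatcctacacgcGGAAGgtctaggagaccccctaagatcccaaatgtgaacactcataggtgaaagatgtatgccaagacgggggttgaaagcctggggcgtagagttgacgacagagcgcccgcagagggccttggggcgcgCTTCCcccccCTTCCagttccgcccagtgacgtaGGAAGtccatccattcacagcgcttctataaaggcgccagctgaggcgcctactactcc
The letters GGAAG on either strand were found 2 times before Dusp6, 4 times before Fos and 0 times before Spry2, in a search that 64.1% of 32851 promoter windows of 250 bases also passed. The TATA-type letters TATAAA stood 33 bases before the start of Fos and in neither of the others, and were in 12.4% of all windows. Neither TGANTCA, the AP-1 consensus, nor a CArG box, the element bound by serum response factor, was found in the windows of the 6 genes matched, and these were in 6.75% and 1.47% of all windows. Bases further upstream were not searched, and Egr1 was not among the genes matched, so nothing is read from these absences. Matches are descriptions of the letters and no evidence of binding.

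Co-variation was described across the cells of each label, as Spearman's rho of CPM, for genes with a read in 50% or more of those cells. In D1, 8 of the 10 genes met this limit, and the median of their 28 pairs was 0.18, beside 0.06 for all pairs of 9811 genes. Of the 28 pairs 22 were above 0, from -0.30 for Etv4 and Ier3 to 0.45 for Dusp6 and Spry4. Spry4 had the higher values, with 0.42 for Etv5, 0.40 for Spry2 and 0.354 for Spred1. Dusp4 followed Spry2 (0.346), Dusp6 (0.32) and Spry4 (0.30). Ier3 had values between -0.10 and 0.24 with all but Etv4. The middle 90% of all pairs of genes in D1 ran from -0.25 to 0.351, so 4 of the pairs, all with Spry4, lay above that range and 1, Etv4 and Ier3, lay below it. In D0 the 6 pairs of Spry2, Spred1, Etv4 and Etv5 had a median of 0.08 beside 0.03 for all genes, and in D2 the pair of Etv4 and Etv5 had 0.14 beside 0.02. Values of this size in sparse counts are not taken as a finding. The cells of a label share a plate, and in D1 the rho with the number of detected genes was 0.38 for Dusp4 and Spry2, 0.36 for Ier3 and 0.11 for Spry4. With ranks adjusted for reads and detected genes, the D1 median was 0.16.

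Dusp6 and Spry4 were also followed below that limit, chosen for their value in D1. In D0, 13 of 90 cells had a read of both, 8 of Dusp6 only, 5 of Spry4 only and 64 of neither, with a rho of 0.59. Without column 12 it was 0.55, with 10 cells having both. In D2, 14 of 93 cells had both, 18 Dusp6 only and 17 Spry4 only, with a rho of 0.22, which was 0.12 without column 12. At equal depth the rho was 0.44 in D0 and 0.22 in D2. These counts were not compared by a test, and over all genes fewer gene and cell pairs had a read in D2 (35.6%) than in D0 (67.5%). Egr1 and Fos had a rho of 0.72 in D0, from 6 cells with both. It was 0.29 without column 12, from 1 cell with both, and in D2 all 7 cells with both lay in that column. In D1 Egr1 and Fos had a rho of 0.31, with 6 cells having both among 17 with Egr1 and 9 with Fos, and the highest cell of each was not that of the other.

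**Figure D5:**
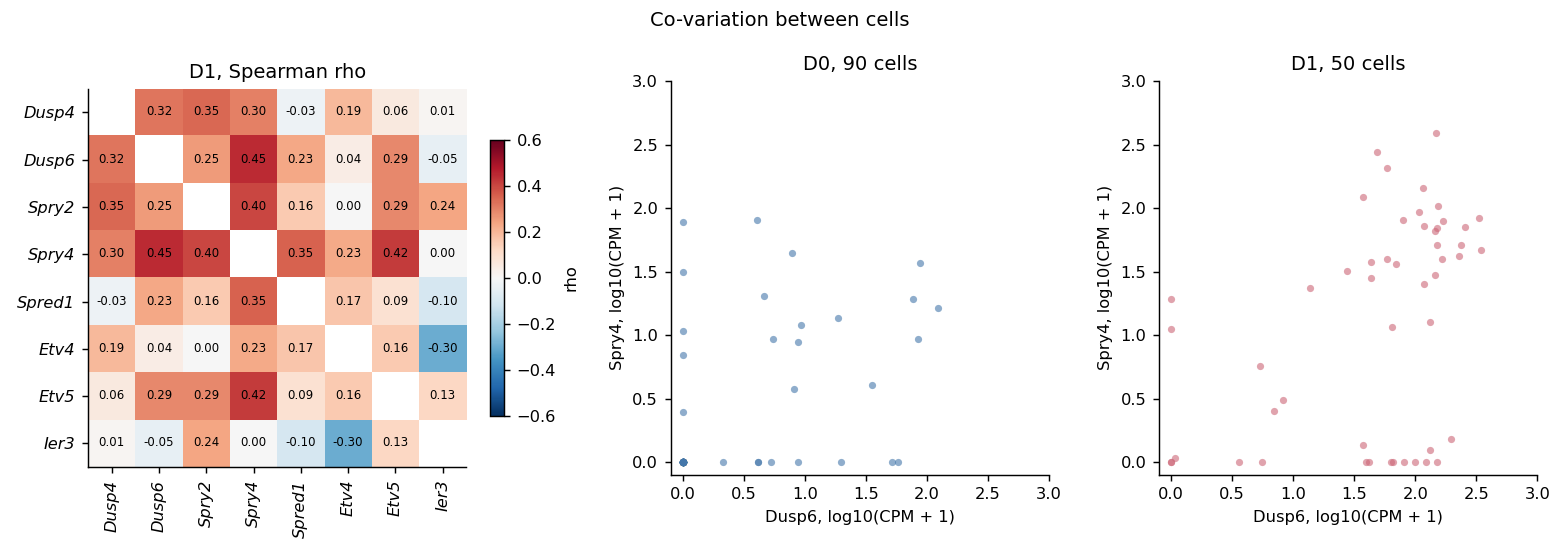
Spearman's rho between the 8 genes with a read in 50% or more of D1 cells (left, colour and printed value) and Dusp6 against Spry4 in each cell of D0 and of D1 (log10(CPM + 1) on both axes). The highest value in D1 is 0.45 for Dusp6 and Spry4, and in D0 64 of 90 cells lie at 0 for both.

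Only Etv4 and Etv5 had a read in 50% or more of the cells of every label, so genes of like pattern were sought for them alone, among 3644 such genes. By the mean of the 3 within-label rho values, Etv5 was most like Hnrnpf (0.44), an RNA-binding protein gene, Ywhaz (0.41) and Ppp2r1a (0.39), a phosphatase subunit gene. For Etv4 the nearest were Mthfd1 (0.32), of folate metabolism, the chaperonin gene Cct7 (0.30) and Poldip2 (0.30). The median over all 3644 genes of the best such value was 0.38, above the values of Etv4 and near those of Etv5.

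Other genes of the pathway were taken from lists. Their counts stand beside 12.7% higher and 28.5% lower of all genes in D1 over D0, and 14.8% and 27.4% in D2 over D0. Of 17 ligands and receptors 8 were over the low limit, with 1 at least 2-fold higher and 3 lower in D1 over D0, and 2 higher and 1 lower in D2 over D0, numbers too small to set against those shares. Fgf4, the ligand that stem cells make, was at 183 ± 113, 175 ± 128 and 129 ± 201 CPM in D0, D1 and D2. Kit, the receptor of stem cell factor, was at 445 ± 272, 18.2 ± 29.1 and 13.1 ± 87.5 CPM, with log2 ratios over D0 of -4.54 and -4.98. Hbegf, an EGF receptor ligand, had log2 ratios of 1.89 and 1.07. The insulin receptor gene Insr had a log2 ratio of 1.99 in D2 at 45.9 ± 304 CPM, with a read in 15 of 93 cells.

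Of 17 adaptors and RAS proteins 15 were over the limit, with 2 higher and 5 lower in D1 and 2 higher and 6 lower in D2, where all genes had 12.7% and 28.5%, and 14.8% and 27.4%. Nothing is read from these counts. Eras, a RAS-like gene of embryonic stem cells, was at 0.60 ± 3.95 CPM in D0, 42.8 ± 68.4 in D1 and 80.6 ± 119 in D2, log2 ratios of 4.78 and 5.67. Sos1, an exchange factor for RAS, was at 76.5 ± 91.5, 15.2 ± 16.9 and 2.14 ± 12.6 CPM, log2 ratios of -2.26 and -4.62. The docking protein gene Gab1 had log2 ratios of -0.09 and 1.47, and Nras of -0.57 and -0.90. Of 17 cascade kinases 15 were over the limit, and 0 were higher and 5 lower in D1, with 1 higher and 3 lower in D2, beside the same shares of all genes. Mapk3, which encodes an ERK kinase, had log2 ratios of -0.95 and 1.08, the latter with a read in 33 of 93 cells at 36.7 ± 220 CPM. The MEK genes Map2k1 and Map2k2 had -1.11 and 0.66 in D1, and -0.52 and 0.59 in D2. The ERK-activated kinase genes Mknk1 and Mknk2 had -2.60 and -0.49 in D1, and -1.10 and -3.26 in D2.

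Of 22 other inhibitors of the pathway 15 were over the limit, with 3 higher and 4 lower in D1 and 3 higher and 3 lower in D2. Beside the shares of all genes, 12.7% and 28.5% in D1 and 14.8% and 27.4% in D2, these counts show no departure that is read as a result. Dusp9, another ERK phosphatase, was at 4.33 ± 13.1 CPM in D0, 26.3 ± 31.7 in D1 and 76 ± 149 in D2, log2 ratios of 2.36 and 3.85, and at equal depth it had a read in 24.4%, 74% and 78.5% of cells. It thus differed from Dusp4 and Dusp6 in being read in most cells at 48 h. Pea15a, which holds ERK in the cytoplasm, had log2 ratios of 2.66 and 1.70, and the stress-induced phosphatase gene Dusp1 of 0.59 and -0.54. The RAS GTPase-activating genes Rasa1 and Rasa2 had -1.73 and 0.41 in D1, and -1.64 and -2.56 in D2, and the RAF inhibitor gene Pebp1 had 0.62 and 0.50.

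Of 26 other immediate early and ETS genes 14 were over the limit, with 2 higher and 5 lower in D1 and 5 higher and 4 lower in D2, where all genes had 12.7% and 28.5%, and 14.8% and 27.4%. Myc was at 2.72 ± 7.67 CPM in D0, 70.8 ± 75.7 in D1 and 73.6 ± 216 in D2, log2 ratios of 4.27 and 4.33. Ier2 was read in nearly every cell, at 73.7 ± 53.4, 156 ± 107 and 255 ± 215 CPM, log2 ratios of 1.07 and 1.78. Klf2, a naive pluripotency factor, had log2 ratios of -2.79 and -1.78, the repressor gene Etv6 of -1.45 and -4.13, and Mcl1, a survival gene of the BCL2 family, of -0.17 and -1.24.

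Cells were dissociated with accutase and sorted before lysis, and immediate early genes can respond to this, so 13 genes of dissociation and heat shock were counted. Of these 10 were over the limit, with 3 higher and 0 lower than in D0 both in D1 and in D2, beside 12.7% higher and 28.5% lower of all genes in D1 and 14.8% and 27.4% in D2. Hspa8, a constitutive chaperone, had log2 ratios of 1.07 and 1.02, Hspb1 of 2.01 and 1.27, and the co-chaperone gene Dnajb1 of 0.25 and 1.37. Hsp90aa1 had 0.48 and -0.44, Dnaja1 0.75 and -0.98, and the NF-kappa-B inhibitor gene Nfkbia -0.22 and 0.34. Their sum per cell had medians of 9496, 15600 and 10362 CPM in D0, D1 and D2. How far handling bears on Egr1, Fos and Ier3 was not tested.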

How the data were processed

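Single cells were sorted into 96-well plates and prepared by scNMT-seq, and the RNA libraries of 288 wells were used. The authors deposited a table of whole-number values for every gene and well, which was taken as raw read counts. Reads had been aligned with HISAT2 to GRCm38 per the labels, and the counting tool is not given in the sources used here. The sample descriptions name a filtered, normalized table, and the values were taken as raw counts because they were whole and no well was missing, so this reading is not certain. Of the counts above 0, 81.0% were even numbers, and no molecular identifiers were present, so intervals cover counting error only and are too narrow if mates of a pair were both counted.

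Cells were kept at over 200000 reads, over 2000 genes and a mitochondrial share under 0.15 (total counts per cell 202157 to 43336922, which sets the precision). Counts were scaled to CPM by the total of each cell, and means weight cells equally. A ratio is log2 of (mean CPM + 1) over (mean CPM + 1), and a gene was counted at 2-fold or more where the mean of the 3 label means was at least 5 CPM. For equal depth each cell was thinned once to 200000 reads, and shares have exact Clopper-Pearson 95% intervals. Samples are 1 culture per label, so no test was run. Positions and exon lengths came from a GENCODE annotation of GRCm38, and the authors may have used another. Values were computed with scipy 1.17.1, pandas 2.3.3 and numpy 2.4.6 in Python 3.11.15, with TMM factors from edgeR 4.0.16 in R 4.3.3. On simulated counts with 200 genes changed 4-fold in D1 over D0, 194 of the 194 changed genes over the limit were counted in the right direction, and 50 of 10031 others passed 2-fold. The simulated cells had no difference of culture, plate or subline, and less spread than Fos or Ier3 showed in D1. These counts therefore give no error rate for the present data.

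The 10 genes, the lists and the rules for named genes were chosen with earlier results of these data known. From each list the 2 genes of highest mean and those with the largest positive and negative ratio over D0 were named, and 1 gene of the kinase list is not reported here. Plate column 12 and the cells with Hprt or Y-linked reads of another label were chosen after seeing the data.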

Additional observations from a re-analysis of the deposited data

Results flagged for a closer look

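Wells that failed the limits, which entered no comparison, also held reads of the 10 genes. The 6 failing wells labelled D0 had 22 such reads, all in 1 well, and the 46 failing wells labelled D1 had 122, spread over 14 wells. The 3 failing wells labelled D2 had 0. In CPM this was 192 in D0 and 341 in D1, beside 444 and 621 in the passing cells of the same labels. The D1 reads were of Etv5 (44), Spry2 (32), Spry4 (16), Dusp6 (12), Dusp4 (8), Etv4 (6) and Ier3 (4), with 0 of Spred1, Egr1 and Fos. They were singled out because they lie outside the cells used and above a count of 0.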

How the results depend on the processing

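No paired analysis was possible because the replicate numbers are well positions, each well is a different cell, and each label is 1 culture. Of the 6 counts of ERK genes past 2-fold, those higher in D1 over D0 were 5 to 7, those lower 0, those higher in D2 over D0 4 to 5, those lower 2, and those lower in D2 over D1 3 to 4 over the 16 alternatives. Those higher in D2 over D1 were 0, and were 2 with no filter on cells and in plate columns 7 to 12. The median correlation in D0 was 0.19 by Pearson's r of log2(CPM + 1) in place of 0.08, and that of D2 was 0.017 in plate columns 7 to 12 in place of 0.14. The cause of these differences was not tested. No ratio that was at least 2-fold changed sign. Among the smaller ones, that of Etv4 in D1 over D0 was -0.12 with no filter on cells in place of 0.35, and that of Ier3 in D2 over D1 was 0.73 in plate columns 1 to 6 in place of -0.09. By the median over cells in place of the mean, the ratios over D0 of Egr1 and Fos in D1 and of Dusp6, Spry4, Egr1 and Ier3 in D2 were 0.00, since the median cell of both labels had no read, and those of D2 over D1 were -6.22 for Dusp6, -4.74 for Spry4, -3.03 for Ier3 and -2.95 for Etv4. The counts of ERK genes above were not made with this alternative. With 5 reads in place of 1, the share at equal depth was highest in D0 for Etv5 and in D2 for Egr1 and Ier3. TMM factors moved the median ratio of all genes over D0 by 0.20 in D1 and 0.26 in D2, and the ratio of Dusp6 was then 3.83 and 3.34. With them 15.99% of all genes were at least 2-fold higher and 22.96% lower in D1, and 21.86% and 21.92% in D2, while the counts of ERK genes were as before. Median-of-ratios factors moved the median of D2 over D0 by 0.22 and that of D2 over D1 by 0.12. Leaving out each cell in turn gave 1.61 to 3.11 for Fos, 1.64 to 3.09 for Ier3 and 3.13 to 4.07 for Egr1 in D1 over D0. Without cells that carried Hprt or Y-linked reads of another label, 5 and 4 genes were still at least 2-fold higher over D0. Thinning to equal depth lowered the share of D2 cells with a read from 29.03% to 13.98% for Spry2 and from 7.53% to 4.30% for Fos, and left that of Dusp4 at 3.23%.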
